A study of Mus musculus with 4 samples.

Results

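The chemokines Cxcl9, Cxcl10 and Cxcl16 and the receptors that read them, Cxcr3 and Cxcr6, were followed through the immune cells of EO771 mammary tumors. These 5 genes were taken by name from the 32285 genes of the table of uncorrected UMIs (unique molecular identifiers, each marking 1 captured RNA molecule). Their levels were given as UMIs per 10000 UMIs in each of 4 tumors and 15 cell types. CXCL9 and CXCL10 are secreted chemokines that interferon gamma and other interferons induce, and both bind CXCR3 on activated T cells, NK cells and some dendritic cells. CXCL16 is made as a membrane protein that the proteases ADAM10 and ADAM17 can shed, and it binds CXCR6 on effector and tissue-resident T cells. Together the ligands are known as cues that draw lymphocytes into tumors and hold them near antigen-presenting cells.

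EO771 is a mouse mammary cancer cell line, here grown in the mammary fat pads of female C57BL/6 mice. Both genotypes carried floxed Csf1r alleles, and the tumors are called Csf1rfl/fl (2 tumors, without Cre) and Lyve1CreCsf1rfl/fl (2 tumors). In the second genotype Cre is driven by Lyve1, a gene of lymphatic endothelium and of a subset of macrophages, and it excises the floxed Csf1r, which encodes the receptor for the growth factors CSF1 and IL34. Viable CD45+ cells were sorted, and each of 2 Chromium runs pooled a tumor from either genotype after staining with hashtag antibodies that keep them separable, so tumor 1 of both genotypes came from run 1 and tumor 2 from run 2.

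Cxcl9 and Cxcl10 lie near each other on the minus strand of chromosome 5 (mm10), Cxcl9 at chr5:92321347-92328079 and Cxcl10 at chr5:92346638-92348889. Cxcl16 lies at chr11:70453983-70459984 on the minus strand, Cxcr3 at chrX:101731535-101734269 on the minus strand, and Cxcr6 at chr9:123806475-123811760 on the plus strand. RefSeq windows upstream of the start site (GRCm38.p6) were found for 4 of the 5 genes. Cxcl9 and Cxcl10 share a receptor and a stretch of chromosome. Their highest mean levels fell in different cell types, although for Cxcl9 the highest was not separated from the next. The 250 bases before the starts of the neighbours Cxcl10 and Cxcl9 are shown. They span chr5:92348890-92349139 and chr5:92328080-92328329, and are written 5′ to 3′ on the gene's strand, so that the last base is next to the start site. Capitals mark the matches of the motifs searched on both strands.
Cxcl10: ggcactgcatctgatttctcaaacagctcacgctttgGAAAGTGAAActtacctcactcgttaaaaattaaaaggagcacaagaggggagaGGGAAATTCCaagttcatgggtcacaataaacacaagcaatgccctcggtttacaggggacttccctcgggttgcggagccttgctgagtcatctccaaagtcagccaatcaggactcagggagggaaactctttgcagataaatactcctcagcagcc
Cxcl9: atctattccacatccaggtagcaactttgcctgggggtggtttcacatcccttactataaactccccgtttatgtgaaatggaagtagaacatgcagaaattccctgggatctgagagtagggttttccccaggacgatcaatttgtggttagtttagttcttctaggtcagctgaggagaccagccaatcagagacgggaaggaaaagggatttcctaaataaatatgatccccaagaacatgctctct
The Cxcl10 window held 1 match to an interferon-response-element pattern, GAAANNGAAA, which begins 213 bases before the start, and 1 match to an NF-kappaB pattern, GGGANNTTCC, which begins 159 bases before it. Those patterns occurred in 2.98% and 1.21% of all 32851 windows of this length. The Cxcl9, Cxcr3 and Cxcr6 windows held neither, and none of the 4 windows held the gamma-activated-site pattern TTCNNNGAA, found in 7.02% of windows, or the T-box pattern GGTGTGA, found in 3.33%. A match describes letters in this window and is not evidence of binding.

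Of 28429 cells kept by the authors, 23188 (81.6%) fell into the 15 cell types compared, which were gated on lineage markers that include none of the 5 genes. Tumors had 27686362 to 56715743 UMIs and a median of 3721 to 4657 UMIs per cell. Every marker checked was highest in its own gate except in Cd209a DCs (2 of 4 markers), monocytes (3 of 4) and stromal or tumor cells (5 of 7). The general T cell, B cell and phagocyte panels were not checked. The gates were built from these same markers, so this is not an independent check of the cell types. The 14 B cells were too few to compare. Csf1rfl/fl tumor 1 stood apart, with 15.5% of its cells meeting the gates of 2 lineages, against 7.18% to 12.4% in the other tumors, and 6.82% of its cells with a hashtag count under 3 times the other, against 0.218% to 1.41%. The runs shared 60 barcode sequences. Csf1r was at 0.898 and 0.964 UMIs per 10000 over all kept cells of the Csf1rfl/fl tumors and at 0.427 and 0.454 in the Lyve1CreCsf1rfl/fl tumors. In macrophages, whose share of cells was also lower (given with the totals over all kept cells), it was at 1.97 and 2.57 against 1.57 and 1.64. Reads at the 3′ end of Csf1r need not lie in the deleted part, so this level alone does not check the deletion. Lyve1 was at 0.00758 and 0.00491 against 0.0117 and 0.0152 UMIs per 10000 over all kept cells, from 43 and 20 against 42 and 42 UMIs. In macrophages it had 2 and 1 against 0 and 0 UMIs, too few to compare.

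Cxcl10 was the most abundant of the 5 genes and was highest in monocytes, the Ly6c2-positive phagocytes that enter tumors from blood. It was at 16.02 and 19.5 UMIs per 10000 in monocytes of the Csf1rfl/fl tumors and at 18.6 and 17.0 in those of the Lyve1CreCsf1rfl/fl tumors, a mean of 17.8 ± 1.55 (SD, n = 4 tumors). Macrophages, the C1q-positive phagocytes, had 8.28 and 12.2, and then 12.3 and 11.0 UMIs per 10000. The monocyte and macrophage values did not overlap in any tumor, and the difference was 0.86 on the log2 scale (SE 0.24, adjusted p = 0.0049, from edgeR's quasi-likelihood fit, corrected by Benjamini-Hochberg across 11728 genes, of which 26% were called). Without Csf1rfl/fl replicate 2 it was 0.82 with an adjusted p of 0.0528.

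Neutrophils followed at 8.77, 9.99, 8.38 and 7.74 UMIs per 10000 (the tumors in the same order), and other phagocytes at a mean of 7.92. Other phagocytes met the general phagocyte gate but no subset gate, and could carry subset markers below the minimums of those gates. The place of neutrophils depended on the scaling. Their libraries had a TMM factor of -0.94 on the log2 scale, the lowest of all cell types, against 0.04 in macrophages and -0.12 in monocytes. With these factors Cxcl10 was 0.66 lower on the log2 scale in macrophages than in neutrophils (log2 difference -0.66, SE 0.24, adjusted p = 0.0167, edgeR, 58.6% of genes called), and monocytes and neutrophils differed by 0.21 (SE 0.24, adjusted p = 0.476, 55.8% of genes called). With library totals alone, an alternative chosen after seeing the data, macrophages were 0.33 above neutrophils (adjusted p = 0.192) and monocytes were 1.03 above neutrophils (adjusted p = 8.4e-05). The lead of monocytes over macrophages kept its direction under both scalings.

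Dendritic cells and lymphocytes had less Cxcl10. Cd209a DCs, a conventional dendritic cell gate, had a mean of 4.44 UMIs per 10000, below other phagocytes by 0.73 on the log2 scale (SE 0.26, adjusted p = 0.0207, edgeR, 33.8% of genes called) and not separated from gamma delta T cells, at 3.64 (0.53, SE 0.29, adjusted p = 0.162, 35.5% of genes called). Mature DCs (Ccr7-positive migratory cells) had 2.09 and cDC1, the Xcr1- and Clec9a-positive cross-presenting cells, 2.07. T and NK cell gates had 1.51 to 3.64. Thinned to 1500 UMIs per cell, 45.2% to 49.2% of monocytes held a Cxcl10 UMI (55.4% to 60.1% before thinning), 33.5% to 36.9% of macrophages and 20.6% to 26.9% of neutrophils. In the T and NK gates the thinned share was 8.58% to 28.4%, and in pDCs, the plasmacytoid dendritic cells, 1.61% to 7.04%. By level, CD8 T cells (1.51), Tregs (1.55) and NK cells (1.57) were not above pDCs, at a mean of 1.83 UMIs per 10000. The 5% of pDCs with most Cxcl10 held 95.3% of its UMIs in that gate, up to 97 in a single cell. In CD8 T cells, Tregs and NK cells the 5% with most Cxcl10 held 68.4%, 66.5% and 72.7% of it. The level in pDCs was not taken as a background for Cxcl10, and the part of free RNA in these low levels was not tested. The median depth was 4744.5 UMIs in monocytes and 4117 in pDCs. Thinning left out 46 of 3394 monocytes, 39 of 1475 macrophages, 1342 of 5968 neutrophils and none of the pDCs.

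Cxcl9 was spread over dendritic cells and phagocytes. The highest mean was in cDC1, where it was at 2.38 and 4.98 UMIs per 10000 in the Csf1rfl/fl tumors and at 4.33 and 6.25 in the Lyve1CreCsf1rfl/fl tumors, a mean of 4.48 ± 1.62. Monocytes had 2.07, 5.31, 2.41 and 4.91 UMIs per 10000, and macrophages 1.88, 3.50, 2.41 and 5.16. These 3 gates overlapped, and neither cDC1 and monocytes (log2 difference 0.35, SE 0.47, adjusted p = 0.566, edgeR, 51.1% of genes called) nor monocytes and macrophages (0.33, SE 0.46, adjusted p = 0.669) differed beyond the spread. Other phagocytes at 2.24 and mature DCs at 2.06 came next and were not separated (log2 difference -0.13, SE 0.50, adjusted p = 0.865, 50.5% of genes called). The sign of this difference ran against the means. With library totals alone it was 0.26 (adjusted p = 0.680, edgeR). Mature DCs were above Cd209a DCs by 1.54 (SE 0.56, adjusted p = 0.0194, edgeR, 46% of genes called), and by 1.22 with library totals alone (adjusted p = 0.0546).

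In cDC1, monocytes, macrophages and mature DCs the tumor of run 2 had more Cxcl9 than the tumor of run 1 in both genotypes. The ranges were 1.03 to 4.33 UMIs per 10000 in run 1 and 2.39 to 6.25 in run 2. Run and animal cannot be told apart in this shift.

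A small share of cells carried most Cxcl9. The 5% of monocytes with most Cxcl9 held 81.5% of its UMIs in that gate, up to 110 in a single cell, whereas the 5% of monocytes with most Cxcl10 held 35.0% of the Cxcl10. In cDC1 these shares were 62.9% for Cxcl9 and 68.5% for Cxcl10. At 1500 UMIs per cell, 10.8% to 24.4% of cDC1 and 8.02% to 15.1% of monocytes held a Cxcl9 UMI (28.9% to 41.0% and 11.95% to 20.0% before thinning), against 0.27% to 0.997% of NK cells, whose median depth of 3975 UMIs was below the 10069.5 of cDC1.

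Cxcl16 was led by mature DCs. They had 5.98 and 6.92 UMIs per 10000 in the Csf1rfl/fl tumors and 5.86 and 6.93 in the Lyve1CreCsf1rfl/fl tumors, a mean of 6.42 ± 0.58. Macrophages had 3.10 and 3.24, and then 3.82 and 3.54. Every tumor's mature DCs were above every tumor's macrophages, by 1.27 on the log2 scale (SE 0.19, adjusted p = 6.9e-08, edgeR, 55.3% of genes called). This value carries the TMM factors, -0.31 in mature DCs and 0.04 in macrophages on the log2 scale. With library totals alone the difference was 0.92 (adjusted p = 3.0e-05, edgeR). Macrophages were above other phagocytes, at 1.96, by 0.85 (SE 0.21, adjusted p = 0.00396, 9.64% of genes called), and these were above cDC1, at 0.952, by 0.85 (SE 0.23, adjusted p = 0.00162, 47.4% of genes called). cDC1 and monocytes, at 0.791, did not differ beyond the spread (0.25, SE 0.22, adjusted p = 0.368), nor did monocytes and Cd209a DCs, at 0.583 (0.53, SE 0.25, adjusted p = 0.0900, 36.1% of genes called).

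Unlike Cxcl9, Cxcl16 was not held mostly by a few cells of its leading gate. The 5% of mature DCs with most Cxcl16 held 17.7% of its UMIs. At 1500 UMIs per cell 56.7% to 63.7% of mature DCs held a Cxcl16 UMI (83.5% to 86.5% before thinning), against 29.4% to 41.4% of macrophages, 8.31% to 10.1% of monocytes and 0% to 1.91% of NK cells. The median depth was 4720 UMIs in mature DCs. The order of monocytes and mature DCs was thus opposite for Cxcl10 and Cxcl16, with 17.8 and 2.09 UMIs per 10000 of Cxcl10 and 0.791 and 6.42 of Cxcl16.

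**Figure D1:**
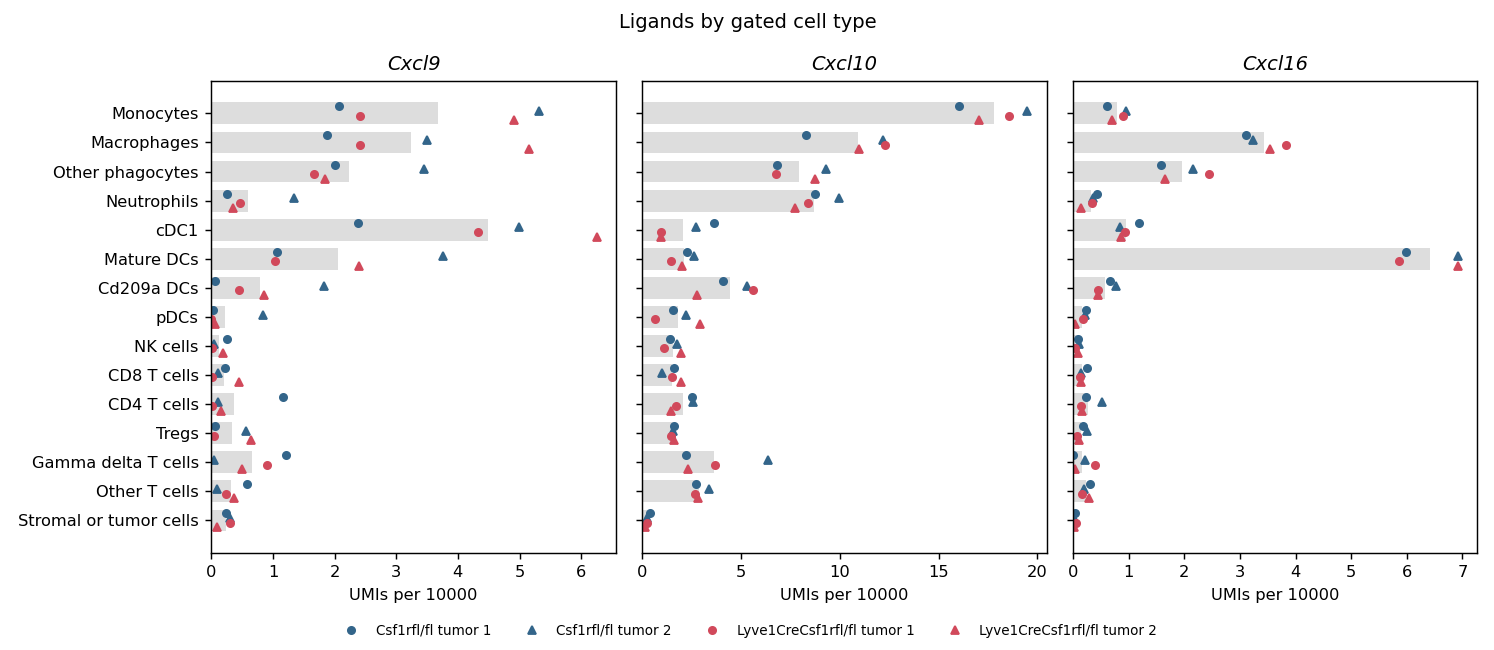
Levels of Cxcl9, Cxcl10 and Cxcl16 (UMIs per 10000, horizontal axis of each panel) in 15 gated cell types. Points are tumors (blue Csf1rfl/fl, red Lyve1CreCsf1rfl/fl, circles run 1, triangles run 2) and bars are means of the 4 tumors, which peak at 17.8 in monocytes for Cxcl10, 6.42 in mature DCs for Cxcl16 and 4.48 in cDC1 for Cxcl9.

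Cxcr3, the receptor of CXCL9 and CXCL10, was read at low levels. Tregs, the Foxp3-positive suppressive T cells, had 0.785 and 1.22 UMIs per 10000 in the Csf1rfl/fl tumors and 0.554 and 0.819 in the Lyve1CreCsf1rfl/fl tumors, a mean of 0.844 ± 0.276. For the Treg gate 1 Foxp3 UMI was enough, so Tregs with no captured Foxp3 can lie in the CD4 or other T cell gates. How many do was not tested. Gamma delta T cells were at a mean of 0.738, and CD4 T cells without a Foxp3 UMI at 0.709. Other T cells, which met none of the T cell subset gates, were at 0.632. The values of these 4 gates overlapped, and no neighbours in their order passed the test (log2 differences 0.24, 0.02 and 0.11, adjusted p = 0.563, 1.0 and 0.893, edgeR, with 18.3%, 9.97% and 2.69% of genes called). pDCs followed at 0.405 ± 0.124, not separated from other T cells (0.48, SE 0.22, adjusted p = 0.0719, 44.5% of genes called; with library totals alone 0.61, adjusted p = 0.0220) but above NK cells, at 0.244, by 0.78 (SE 0.24, adjusted p = 0.00627, 45.7% of genes called).

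CD8 T cells had 0.146 and 0.295, and then 0.246 and 0.283 UMIs per 10000 of Cxcr3, all below every Treg value. The difference between CD8 T cells and Tregs was -1.67 on the log2 scale (SE 0.17, adjusted p = 1.96e-12, edgeR, 20.8% of genes called). cDC1 had 0.104 ± 0.0406, above mature DCs, at 0.0111, by 2.97 (SE 0.44, adjusted p = 6.2e-08, edgeR, 53.6% of genes called). At 1500 UMIs per cell 10.8% to 18.2% of Tregs held a Cxcr3 UMI (23.6% to 40.5% before thinning), 2.40% to 6.44% of CD8 T cells and 0% to 0.29% of monocytes. The median depth was 3675.5 UMIs in Tregs and 4799.5 in CD8 T cells.

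Cxcr6, the receptor of CXCL16, was led by CD8 T cells. They had 2.63 and 2.96 UMIs per 10000 in the Csf1rfl/fl tumors and 3.18 and 2.43 in the Lyve1CreCsf1rfl/fl tumors, a mean of 2.80 ± 0.336. CD4 T cells had 1.21 and 1.86, and then 1.19 and 1.31, without overlap with CD8 T cells, and the difference was 1.19 (SE 0.16, adjusted p = 2.3e-08, edgeR, 17.5% of genes called). Gamma delta T cells at 1.03 and other T cells at 0.868 followed, and neither pair of neighbours from CD4 T cells to other T cells passed the test (adjusted p = 0.16 and 0.899, with 9.97% and 3.27% of genes called). Tregs had 0.228, 0.216, 0.308 and 0.339 UMIs per 10000, below other T cells by 1.68 (SE 0.18, adjusted p = 1.6e-10, 12% of genes called) and below CD8 T cells by 3.49 (SE 0.17). NK cells, at 0.167, were below Tregs by 0.57 (SE 0.22, adjusted p = 0.0433, 31% of genes called).

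All other gates had a mean Cxcr6 of at most 0.0176 UMIs per 10000. At 1500 UMIs per cell 28.7% to 36.2% of CD8 T cells held a Cxcr6 UMI (59.5% to 68.5% before thinning), against 3.80% to 5.75% of Tregs and 0.18% to 0.29% of monocytes. The 5% of CD8 T cells with most Cxcr6 held 21.6% of its UMIs.

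**Figure D2:**
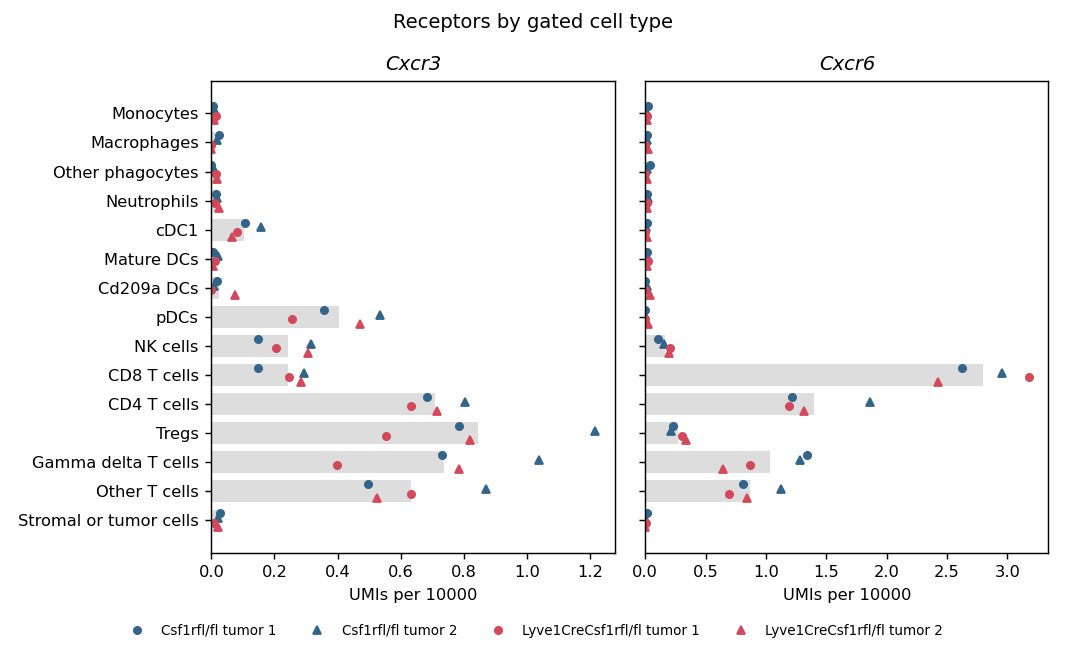
Levels of Cxcr3 and Cxcr6 (UMIs per 10000, horizontal axis of each panel) in the same 15 gated cell types, with points for tumors, symbols for genotype and run, and bars for means as in the plot of the ligands. Cxcr3 peaks in Tregs (0.844) and Cxcr6 in CD8 T cells (2.80), and both receptors lie near 0 in the phagocytes.

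Ligands of the same receptor were often read in the same cells. Among monocytes at 1500 UMIs per cell, a Cxcl10 UMI was found in 69.5%, 61.7%, 71.0% and 63.0% of cells with a Cxcl9 UMI (the tumors in order) and in 43.0%, 47.2%, 43.3% and 44.3% of cells without one. In mature DCs the means were 33.4% and 8.44%, in macrophages 52.6% and 32.8%, and in cDC1 25.3% and 10.1%, each higher with Cxcl9 in 4 of 4 tumors. In neutrophils (37.8% and 24.5%) and other phagocytes (42.5% and 32.05%) it was higher in 3 of 4 tumors and lower in Lyve1CreCsf1rfl/fl tumor 2. In mature DCs a Cxcl9 UMI was found in a mean of 8.61% of cells with a Cxcl16 UMI and 10.9% of cells without one, lower with Cxcl16 in 4 of 4 tumors. The order was the opposite in monocytes (22.4% and 10.5%), neutrophils (9.54% and 1.99%) and other phagocytes (13.6% and 7.63%), each in 4 of 4 tumors, and in macrophages (15.9% and 10.3%) in 3 of 4. In neutrophils this rests on few cells. Those with a Cxcl16 UMI numbered 46, 38, 45 and 11, and 2.17%, 15.8%, 11.1% and 9.09% of them held a Cxcl9 UMI. The number of cells with a Cxcl9 UMI was 379 in monocytes, 165 in macrophages, 153 in mature DCs and 71 in cDC1. Cells are not replicates and these shares were not tested.

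Among CD8 T cells, Cxcr6 was read less often in cells with Cxcr3. A Cxcr6 UMI was found in 16%, 20.6%, 24% and 21.9% of the 116 CD8 T cells with a Cxcr3 UMI, and in 33.7%, 35.4%, 36.8% and 29.1% of the CD8 T cells without one. The direction was the same in all 4 tumors in CD4 T cells (means 11.6% and 17.2%) and Tregs (3.01% and 5.16%). It was mixed between tumors in other T cells (12.4% and 12.7%) and NK cells (2.08% and 1.73%). Tcf7, a transcription factor of naive, memory and stem-like T cells, was set beside each receptor in turn. Cxcr6 was found in 7.5%, 10.2%, 12.1% and 12.6% of the 260 CD8 T cells with a Tcf7 UMI and in 34.3%, 37.5%, 39.0% and 32.3% of those without. Cxcr3 was found in 5.0%, 15.3%, 12.1% and 15.5% of CD8 T cells with Tcf7 and in 2.30%, 5.33%, 3.49% and 3.46% of those without. Among CD8 T cells all 4 tumors had the same direction for each of these 3 pairs of genes. Ifng, the inducer of Cxcl9 and Cxcl10, was read in a mean of 32.3% of CD8 T cells with a Cxcr6 UMI and 24.03% of those without (higher in 4 of 4 tumors), and in 18.5% of CD8 T cells with a Cxcr3 UMI and 27.2% of those without (lower in 4 of 4 tumors).

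**Figure D3:**
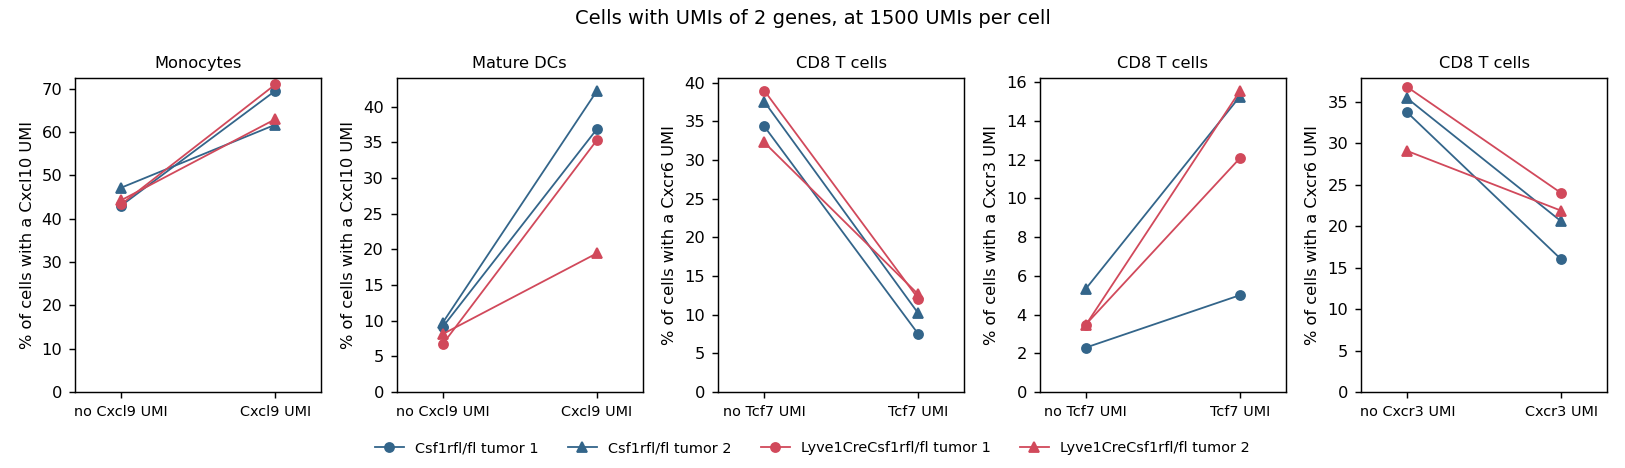
Share of cells with a UMI of 1 gene (vertical axis, %) among cells with and without a UMI of another (horizontal axis), thinned to 1500 UMIs per cell, with lines joining the values of each tumor (colors and symbols as in the plot of the ligands). Cxcl10 is more frequent with Cxcl9 in monocytes and mature DCs, and in CD8 T cells Cxcr6 is less frequent and Cxcr3 more frequent with Tcf7, in all 4 tumors.

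Levels, cell numbers and UMIs per cell together set which gates held a tumor's UMIs. Monocytes held 27.5% to 36.5% of all Cxcl10 UMIs and 21.2% to 32.01% of all Cxcl9 UMIs. Neutrophils were lower than monocytes per 10000 UMIs and in median UMIs per cell (2126 against 4744.5) but more numerous. They held 9.44% to 24.8% of Cxcl10. Although cDC1 had the highest mean level of Cxcl9, the 410 cDC1 held 5.47% to 12.2% of it. Mature DCs held 20.3% and 30.7% of Cxcl16 in the Csf1rfl/fl tumors and 44.9% and 40.7% in the Lyve1CreCsf1rfl/fl tumors, and macrophages 18.4% and 16.3%, and then 10.4% and 10.6%. The groups did not overlap for either gate, but 2 tumors against 2 cannot go below p = 0.333 in an exact two-sided permutation test. The shares of cells moved in the same direction. Mature DCs were 4.35% and 5.90% of cells against 8.43% and 6.12%, and macrophages 7.5% and 5.61% against 3.51% and 2.81%. The part of cell numbers in the shares of Cxcl16 was not tested. Cells that met the gates of 2 lineages held 12.51% to 32.9% of Cxcl9, 12.6% to 27.6% of Cxcl10 and 15.3% to 36.6% of Cxcl16, highest in Csf1rfl/fl tumor 1 for each. CD8 T cells held a mean of 57.6% of Cxcr6, and Tregs a mean of 22.0% of Cxcr3.

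Genes that induce, process or accompany the ligands were taken as a list of 18, from Ifng and its receptor chains to Irf1, the shedding proteases and Dpp4, which clips CXCL10. Cxcl11 of this list was not analysed here. Between monocytes and macrophages 8 of 16 tested genes were higher and 1 lower in monocytes, with a median log2 difference of 0.36, against 1809 higher and 1245 lower of 11728 genes and a median of 0.02. Those that differed most were Dpp4 (1.32), the interferon-induced GTPase Gbp2 (1.06), the kinase Jak2 (0.88) and Irf1 (0.65), a transcription factor downstream of interferon gamma. Between mature DCs and macrophages 9 were higher and 3 lower in mature DCs (median 0.67, against -0.00 over all genes, 3326 higher and 3162 lower). Ccl5, a chemokine that attracts T cells, was higher by 3.44, Dpp4 by 3.21 and Jak2 by 2.79.

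Between cDC1 and mature DCs, which differed in Cxcl16 by -2.98 on the log2 scale (SE 0.22), only Ciita was higher in cDC1 and 11 of 16 were lower (median -1.22, against -0.07 over all genes, 3017 higher and 3267 lower). The log2 differences were -6.35 for Ccl5, -3.71 for Cd274 (the checkpoint ligand PD-L1), -2.33 for Irf1 and -1.94 for Gbp2. Cxcl9 itself was higher by level in cDC1 than in mature DCs of the same tumor in 4 of 4 tumors, but the log2 difference of 1.04 did not pass the test (SE 0.48, adjusted p = 0.0638, edgeR). Between monocytes and neutrophils 5 were higher and 9 lower in monocytes (median -0.35, against 0.03 over all genes, 3134 higher and 3413 lower), a split that rests on the same TMM factors as above. Cd274, at -3.17, had the largest log2 difference, followed by Irf1 (-1.83), Jak1 (-1.61) and Gbp2 (-1.26).

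A second list held 12 regulators and partners of the receptors in lymphocytes. Between CD8 T cells and Tregs 6 of 11 tested genes were higher and 3 lower in CD8 T cells (median 0.49, against 0.02 over all genes, 1226 higher and 1208 lower). Itgae, the integrin CD103 of epithelial retention, had a log2 difference of -4.60, Ifng of 4.07, the CD8 lineage factor Runx3 of 1.84 and Prdm1, a factor of effector and resident cells, of -1.38. Between CD8 T cells and NK cells none was higher and 4 were lower in CD8 T cells (22.7% of all genes called), which were Klf2 (-1.17), Il2rb (-0.80), Tbx21 (-0.59) and Cd69 (-0.48). With the limit of the Foxp3 gate given above, Tregs and CD4 T cells were not separated in Cxcr3 (0.26, SE 0.19, adjusted p = 0.557, edgeR). They differed in Ifng (-2.51), Itgae (0.92) and Bhlhe40 (-0.64), and in Cxcr6 (-2.30, SE 0.19), while 2.56% of all genes were called.

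Across the 15 cell types, the genes with the pattern most like each member were ranked by Pearson's r of log2(UMIs per 10000 + 0.01), means over tumors, among genes at 0.1 or more of the member's highest level. They were Ifi205 (r = 0.915), Slamf8 and Gm6377 for Cxcl9, Slfn2 (0.946), Ms4a4c and Ifit2 for Cxcl10, Tnfrsf11a (0.971), Bcl2a1a and Cd86 for Cxcl16, Sept1 (0.960), Carmil2 and Slain1 for Cxcr3, and Camk4 (0.978), Ehd3 and Tox for Cxcr6. Ifi205, Slfn2 and Ifit2 are interferon-inducible genes, Cd86 is a costimulatory ligand of antigen-presenting cells, and Tox is a factor of chronically stimulated CD8 T cells. Between the members r was 0.837 for Cxcl9 and Cxcl16, 0.631 for Cxcl9 and Cxcl10, and 0.763 for Cxcr3 and Cxcr6. The cell types share libraries and animals, so these values describe the pattern only.

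The effect of the genotype was compared within each cell type, with 2 tumors against 2. Of 75 pairs of member and cell type, 54 passed the filter on low counts (Cxcl9 in 13 cell types, Cxcl10 in 15, Cxcl16 in 12, Cxcr3 in 8 and Cxcr6 in 6), and 1 of these was called, Cxcl10 in cDC1 (edgeR, 0.0559% of 7154 genes called there). In the other cell types the share of genes called was 0% except in Cd209a DCs (0.082%), pDCs (0.209%) and CD4 T cells (0.0295%). Over the 54 tests the next lowest adjusted p was 0.856.

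Cxcl10 was lower in cDC1 of the Lyve1CreCsf1rfl/fl tumors. It was at 3.65 and 2.74 UMIs per 10000 in the Csf1rfl/fl tumors and at 0.962 and 0.942 in the Lyve1CreCsf1rfl/fl tumors, so the genotypes did not overlap. The log2 fold change was -1.68 (SE 0.29, adjusted p = 0.0179), and with the run as block the adjusted p was 3e-07. Behind it were 440 and 552 Cxcl10 UMIs in 93 and 187 cDC1 of the Csf1rfl/fl tumors, and 82 and 57 UMIs in 78 and 52 cDC1 of the Lyve1CreCsf1rfl/fl tumors. Cells with a Cxcl10 UMI were 38.7% and 28.9% of cDC1, against 24.4% and 13.5%, before thinning, and 15.1% and 16.6% against 6.41% and 11.5% at 1500 UMIs per cell. The call was lost with stricter gates, where the log2 fold change was -1.27 (adjusted p = 0.655), with cells whose hashtag count was at least 3 times the other (-1.53, adjusted p = 0.0546), and without Lyve1CreCsf1rfl/fl replicate 2 (-1.57, adjusted p = 0.0578).

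Markers of macrophages moved with Cxcl10 in the cDC1 gate. Cells that met this gate and also that of macrophages or monocytes had been kept in it. The other 3 genes called there were C1qa, C1qb and C1qc, all lower in the Lyve1CreCsf1rfl/fl tumors. The summed macrophage panel of 6 genes was at 8.50 and 1.65 UMIs per 10000 in cDC1 of the Csf1rfl/fl tumors and at 0.129 and 0.397 in those of the Lyve1CreCsf1rfl/fl tumors, with C1qa at 2.14 and 0.427 against 0.0117 and 0. The monocyte panel of 4 genes was at 25.7 and 19.2 against 16.1 and 17.3, with Ly6c2 of this panel at 3.90 and 3.66 against 1.90 and 2.17. A panel of 6 genes of mononuclear phagocytes, Csf1r among them, was at 17.0 and 15.3 against 9.88 and 12.8. When only the 59, 149, 68 and 42 cDC1 without any UMI of the macrophage panel were kept, an alternative chosen after seeing the data, Cxcl10 was at 2.41 and 2.09 against 0.420 and 0.620 UMIs per 10000, with a log2 fold change of -2.07 (SE 0.31, adjusted p = 0.0165, edgeR). Without the 5% of cells with most Cxcl10 it was at 1.43 and 1.10 against 0.256 and 0.251. The part of the monocyte and mononuclear phagocyte markers in the difference was not tested.

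Whether cDC1 differed from other cells in this respect was tested with 1 fit of cell type by genotype, which had no block for the tumor. The fold change in cDC1 was below that in macrophages by 1.89 on the log2 scale (log2 difference -1.89, SE 0.57, unadjusted p = 0.00186) and below that in monocytes by 1.70 (-1.70, SE 0.57, unadjusted p = 0.00459), and against mature DCs the difference was -1.23 (SE 0.57, unadjusted p = 0.0371). The edgeR adjusted p-values were 1.0 for all 3, and 0% of 12384 genes were called. With the tumor as block, an alternative chosen after seeing the data, the differences were the same to 2 decimals, with SE 0.48, 0.47 and 0.49 and edgeR adjusted p-values of 0.234, 0.672 and 1.0 (0% of genes called). The difference between cell types was not shown by either fit. In monocytes themselves the fold change of Cxcl10 was 0.01 (SE 0.27), in macrophages 0.21 (SE 0.27) and in mature DCs -0.50 (SE 0.23), where the levels were 2.28 and 2.62 against 1.44 and 2.02 UMIs per 10000.

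Cxcl9 in the same cDC1 had a log2 fold change of 0.58 (SE 0.30, adjusted p = 1.0), opposite in sign to Cxcl10. With the run as block, Cxcl9 was called higher in Lyve1CreCsf1rfl/fl tumors in cDC1 (0.64, SE 0.15, adjusted p = 0.0207) and in macrophages (0.47, SE 0.13, adjusted p = 0.0446). The block raised the count over all genes as well, to 68 of 7154 genes called in cDC1, against 4 without it, and to 103 of 8780 in macrophages, against 0. In each run the Lyve1CreCsf1rfl/fl tumor was above its partner, at 4.33 against 2.38 and 6.25 against 4.98 UMIs per 10000 in cDC1, and at 2.41 against 1.88 and 5.16 against 3.50 in macrophages. In monocytes the fold change was -0.01 (SE 0.39). Among cDC1 without a UMI of the macrophage panel the fold change of Cxcl9 was 0.30 (SE 0.29).

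Without the run as block, no member was called in its leading gate, which for Cxcl10 is monocytes and not cDC1. Cxcl16 in mature DCs had a log2 fold change of 0.00 (SE 0.23) and Cxcr6 in CD8 T cells of 0.04 (SE 0.25), each with an adjusted p of 1.0. Cxcr3 in Tregs had a log2 fold change of -0.55 (SE 0.24, unadjusted p = 0.0445, adjusted p = 0.999) and was lower in the Lyve1CreCsf1rfl/fl tumor of each run, although the genotypes overlapped. Cxcr6 in Tregs had 0.57 (SE 0.26, adjusted p = 0.999), with 0.228 and 0.216 against 0.308 and 0.339 UMIs per 10000. Cxcl16 in Tregs had -1.26 (SE 0.34, unadjusted p = 0.0034, adjusted p = 0.856), with 0.180 and 0.243 against 0.0670 and 0.115 UMIs per 10000, levels that reach down to that of NK cells (0.0827). With 2 tumors per genotype these tests leave room for changes of this size, and none is shown to be absent.

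**Figure D4:**
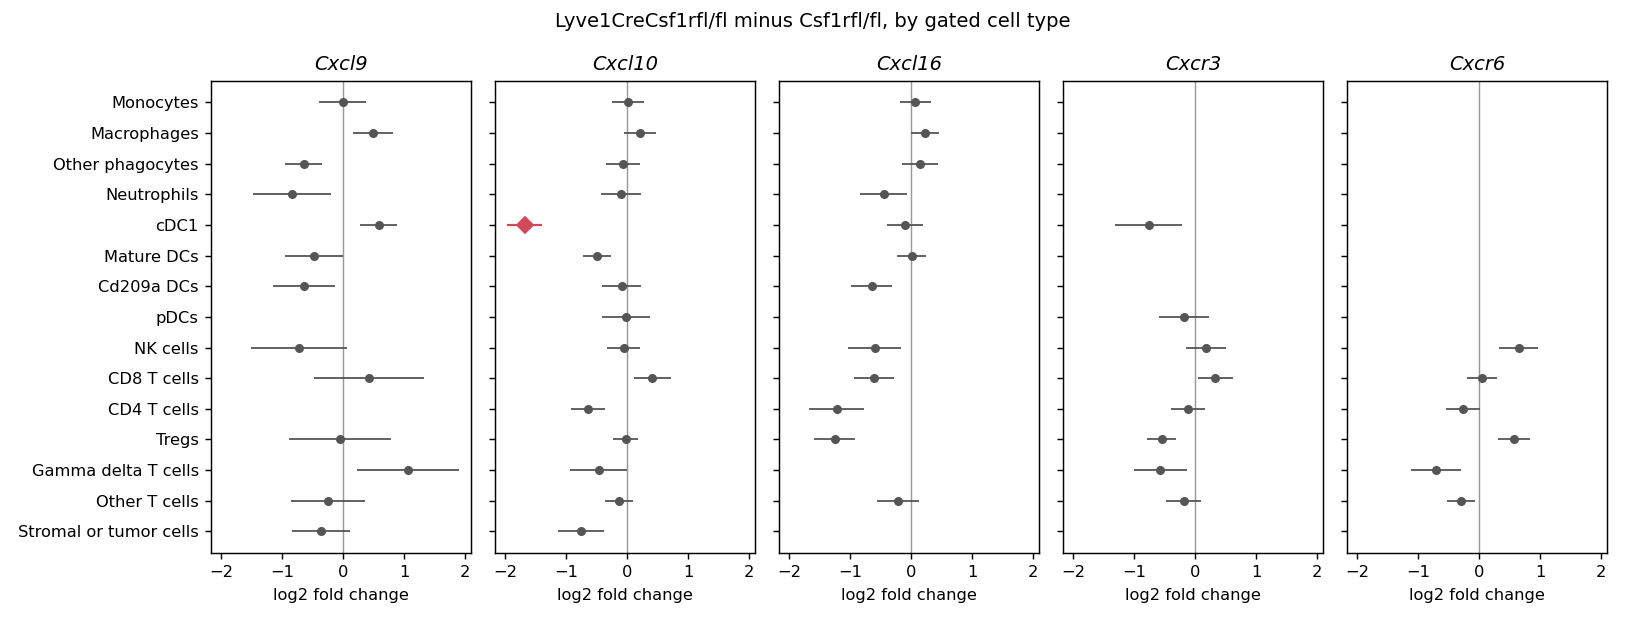
Log2 fold change (Lyve1CreCsf1rfl/fl minus Csf1rfl/fl, horizontal axis) of the 5 genes in each gated cell type, with bars for the standard error of the edgeR fit. Gates in which a gene did not pass the filter on low counts have no point, and the red diamond, Cxcl10 in cDC1 at -1.68, is the only value with an adjusted p under 0.05.

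Over all kept cells no member was called (0% of 14731 genes called, 491 genes at an unadjusted p under 0.05). Cxcl9 was at 0.921 and 2.40 UMIs per 10000 in the Csf1rfl/fl tumors and at 0.849 and 1.57 in the Lyve1CreCsf1rfl/fl tumors, and Cxcl10 at 5.49 and 7.38 against 5.41 and 5.02. Both Cxcl10 and Cxcl16 were lower in each Lyve1CreCsf1rfl/fl tumor than in either Csf1rfl/fl tumor, with narrow gaps in run 1. The share of all genes without such overlap was not computed. Cxcl16 was at 1.15 and 1.34 against 1.14 and 0.929, Cxcr3 at 0.122 and 0.218 against 0.157 and 0.222, and Cxcr6 at 0.546 and 0.458 against 0.470 and 0.567. The log2 fold changes were -0.50, -0.33, -0.29, 0.11 and -0.01 (SE 0.41, 0.27, 0.24, 0.25 and 0.20, adjusted p = 1.0 for each). The sign for Cxcl9 rests on Csf1rfl/fl tumor 2, since the log2 fold change was 0.24 without Csf1rfl/fl replicate 2 and -0.99 without Csf1rfl/fl replicate 1. The signs for Cxcr3 and Cxcr6 also turned when 1 tumor was left out. In such totals fewer cells of a type and less RNA per cell cannot be told apart, and macrophages were 7.5% and 5.61% of the cells in Csf1rfl/fl tumors and 3.51% and 2.81% in Lyve1CreCsf1rfl/fl tumors. No gene of either list was called between genotypes in any of the 15 cell types or over all kept cells.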

How the data were processed

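Viable CD45+ cells of 4 EO771 tumors were sequenced in 2 runs of 10x Chromium 3′ v2. Per the labels and the study's methods, reads were mapped to mm10 and counted with Cell Ranger 6.0.1. The authors deposited UMI counts per gene and barcode and counts of each hashtag, both without normalization. They also deposited SCTransform scores (whole-number corrected counts) for the cells they kept, hashtag singlets with under 5% mitochondrial reads, and these scores were used only for cell names. The authors had also removed ribosome-rich lymphocyte clusters that came nearly all from Lyve1CreCsf1rfl/fl tumor 2, which bears on the lymphocyte gates of that tumor. Kept cells were 53.3% of 53361 barcodes.

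Each cell went to the tumor with the higher centered-log-ratio hashtag count of its run (86 cells would differ by the raw count). This gave 8699 and 7786 cells of the Csf1rfl/fl tumors and 7173 and 4771 of the Lyve1CreCsf1rfl/fl tumors. Gates asked for at least 3 UMIs of a marker panel (5 for mature DCs and stromal or tumor cells) and a minimum of panel UMIs per 10000. The subsets within T cells were looser and had no minimum per 10000. For these, 1 UMI of a CD8 marker, Cd4 or Foxp3 was enough, or 2 UMIs of gamma delta markers, without UMIs of markers of certain other subsets. No doublet caller was run. Instead, 3096 cells that met the gates of 2 lineages were set aside, and 2092 met none. Phagocytes and dendritic cells counted as the same lineage. Cells of the cDC1, mature DC or pDC gate therefore stayed there even if they also met the macrophage or monocyte gate. The gates' minimums were set after the marker values were seen. The members, the gene lists and the tests were chosen with earlier results of these data known. Named genes were the members and, of each list, at most 4 past the threshold with the largest log2 difference in a comparison. Some genes of the lists are counted but not reported here by name.

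UMIs were summed per tumor and cell type. Genes passing filterByExpr were tested with edgeR 4.0.16 (TMM factors, quasi-likelihood test, Benjamini-Hochberg adjustment over all genes tested, threshold 0.05), with the tumor as block between cell types and no block between genotypes. Standard errors were taken from the log2 difference and its test statistic. The replicate numbers of the labels mark the shared run. Differences between runs correlated across genes between the genotypes with r = 0.185 to 0.698 over the cell types, so values with the run as block are given where they change a call. Shares of cells with a UMI were computed after thinning to 1500 UMIs per cell, without 2634 shallower cells. Levels and shares cover counting error only within a tumor. Alternatives were DESeq2 1.42.0 (Wald test, size factors), no filter, stricter gates, a 3-fold hashtag ratio and each tumor left out, and the tumor as block in the fit of cell type by genotype. Gene positions came from GENCODE vM21. R 4.3.3 and Python 3.11.15 were used.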

Additional observations from a re-analysis of the deposited data

How the results depend on the processing

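Of 228 alternative values for 30 results, 187 kept their direction and their side of the threshold or moved within the spread. For levels the spread was the SD over tumors, which the mean cannot leave when a single tumor is dropped. Those values were bound to be counted as kept, so the count does not measure how robust the results are. Averaged over cells instead of UMIs, the level of Cxcr3 in Tregs was 1.15 and that of Cxcr6 in CD8 T cells 3.39 UMIs per 10000. Without a filter on low counts the Cxcl9 difference between cDC1 and monocytes (0.34) was called. With each tumor left out, the Cxcl10 difference between monocytes and macrophages was 0.75 to 0.88. Between genotypes, Cxcl10 in cDC1 was -1.93 to -1.38 with each tumor left out, -1.53 with the 3-fold hashtag ratio and -1.27 with stricter gates. With the replicate block, the run, Cxcl9 in cDC1 was called at 0.64, 3 of 54 pairs of member and cell type were called in all, against 1 of 54 without it, and 68 genes were called in cDC1. It added Cxcl9 in macrophages and changed the call of no other member in a cell type. With the tumor as block, the 6 differences of the genotype effect between cell types kept their direction and none was called.

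Some fold changes between genotypes, none of them called, changed sign. Cxcl10 in monocytes was -0.0092 without the filter, -0.0051 with the hashtag ratio and -0.16 to 0.16 with each tumor left out. Cxcl16 in mature DCs was -0.0011 with stricter gates and -0.027 to 0.030 with each tumor left out, and Cxcr6 in CD8 T cells -0.29 to 0.31. Over all kept cells Cxcl9, at -0.50 with all tumors, was -0.99 to 0.24 with each tumor left out and positive without Csf1rfl/fl replicate 2, and the ranges were -0.19 to 0.49 for Cxcr3 and -0.20 to 0.20 for Cxcr6. The pairs called were 2 of 75 without the filter, 0 of 55 with the hashtag ratio, 0 of 56 with stricter gates and 3 to 5 of 56 to 61 with each tumor left out, where a lone tumor is assumed to vary like the other group. Most pairs called with a tumor left out were Cxcl9 in T, NK and pDC gates with little Cxcl9, in both directions, as in Tregs at 2.23 without Csf1rfl/fl replicate 2 and -2.76 without Lyve1CreCsf1rfl/fl replicate 2. Genes called in cDC1 were 53 without the filter, 0 with stricter gates, 1 with DESeq2, 2 among cells without a macrophage panel UMI and 15 to 85 with each tumor left out. Over all kept cells they were 175 without the filter, 27 with DESeq2 and 0 to 133 with each tumor left out. Apart from the construction of each alternative, the cause was not tested. With 52 to 187 cDC1 per tumor and 2 tumors per genotype, the numbers of cells and tumors limit the cDC1 values.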
